A study of Mus musculus with 2 samples.

Results

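Genes for 10 nutrient transporters of activated T cells were followed in naïve CD4+ T cells that were turned toward Treg cells with or without Tubastatin A (TSA), a selective inhibitor of the deacetylase HDAC6. The genes were chosen by symbol as carriers of amino acids (Slc7a5, Slc3a2, Slc7a1, Slc1a5, Slc38a1 and Slc38a2), glucose (Slc2a1 and Slc2a3) and lactate (Slc16a1 and Slc16a3), and all 10 were found among 23282 rows of gene symbols. Wild-type naïve CD4+ T cells came from spleens of female C57BL/6 mice aged 7 to 10 weeks and were stimulated through CD3 and CD28 with TGF-β1, IL-2 and antibodies that block IFN-γ and IL-4. The control group received DMSO and the TSA group received 10 μM TSA, and RNA was taken after 1 day. Each group was 1 library from a single set of biological samples, and whether cells of several mice were pooled is not given, so no difference below has a replicate check and none was tested across conditions. The QuantSeq kit reads the end of each polyadenylated transcript, so reads do not grow in number with transcript length and levels of different genes were set side by side without dividing by it.

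Naïve T cells take up few nutrients. After stimulation of the T cell receptor they start to grow and divide, and they raise the carriers that bring in leucine, glutamine, arginine and glucose and that let lactate out. SLC7A5 (LAT1), the carrier of leucine and other large neutral amino acids, works only when it is joined to the heavy chain SLC3A2 (CD98), and the leucine it brings in feeds the growth regulator mTORC1. Myc, HIF-1α and ATF4 are transcription factors known to switch on genes of this kind.

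No transporter passed the 2-fold threshold of the study, and the carriers fell into a lower set and a set near the control. Transcripts of the leucine carrier and its heavy chain (Slc7a5, Slc3a2), of the arginine carrier (Slc7a1), of the glucose carrier GLUT1 (Slc2a1) and of both lactate carriers (Slc16a1, Slc16a3) were lower in TSA-treated cells, at 0.609 to 0.7955 times the control value. Those of the 3 sodium-coupled carriers of glutamine and other neutral amino acids (Slc1a5, Slc38a1, Slc38a2) were between 0.961 and 1.07 times the control, and Slc2a3, which encodes the glucose carrier GLUT3, had a higher value whose interval included no change. Together the 10 genes had 18876 reads in control and 16631 in TSA-treated cells. As the authors scaled the libraries, the ratio of the TSA to the control sum (the fold change) was 0.872 (95% interval 0.854 to 0.891). All intervals of fold changes are exact Clopper-Pearson intervals on the reads of both libraries, and they cover counting error only.

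Promoter sequence was found for 6 of the 10 genes in the RefSeq table of GRCm38.p6, with 2 starts for Slc7a1. The windows are the 250 bases before a transcription start, and they were searched because 5 of these 6 genes had lower transcript values together while Slc38a2 did not. Those of Slc16a1, Slc16a3, Slc7a1 (its outer start) and Slc38a2 are printed. Of these, the windows of Slc16a3 and Slc38a2 hold 14 and 2 bases of annotated UTRs. Those of Slc2a1 and Slc3a2, which hold 34 and 169 such bases, are not printed. The letters CACGTG (bound by Myc), ACGTG and GCGTG (both forms of the core bound by HIF-1α) and TGATGNAA (a form of the element bound by ATF4) were searched on both strands. Capitals mark each match to the first 3, so CACGT and CACGC in capitals are ACGTG and GCGTG on the other strand. A CACGTG always holds ACGTG on each strand. The windows of Slc16a1 (chr3:104638414-104638663, plus strand), Slc16a3 (chr11:120948817-120949066, plus strand), Slc7a1 (chr5:148399905-148400154, minus strand) and Slc38a2 (chr15:96699729-96699978, minus strand) read as follows from 5′ to 3′. The RefSeq starts of Slc2a1, Slc16a3, Slc3a2 and Slc38a2 lie inside the GENCODE gene, by 34, 587, 9472 and 2 bases, and the inner start of Slc7a1 by 7089 bases. The windows of Slc16a3 and Slc3a2 and the inner window of Slc7a1 thus lie within the gene as GENCODE draws it, and those of Slc2a1 and Slc38a2 reach into it.
Slc16a1: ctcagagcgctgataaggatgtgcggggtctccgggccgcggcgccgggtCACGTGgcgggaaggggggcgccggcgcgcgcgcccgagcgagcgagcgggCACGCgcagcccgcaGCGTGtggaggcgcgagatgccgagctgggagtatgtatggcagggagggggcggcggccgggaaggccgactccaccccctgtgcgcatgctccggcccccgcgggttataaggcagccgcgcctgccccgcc
Slc16a3: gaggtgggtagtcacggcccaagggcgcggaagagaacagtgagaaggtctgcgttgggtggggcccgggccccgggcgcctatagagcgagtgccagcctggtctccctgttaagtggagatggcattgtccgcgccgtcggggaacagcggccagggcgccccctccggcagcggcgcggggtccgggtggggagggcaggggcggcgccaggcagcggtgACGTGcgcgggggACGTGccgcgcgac
Slc7a1: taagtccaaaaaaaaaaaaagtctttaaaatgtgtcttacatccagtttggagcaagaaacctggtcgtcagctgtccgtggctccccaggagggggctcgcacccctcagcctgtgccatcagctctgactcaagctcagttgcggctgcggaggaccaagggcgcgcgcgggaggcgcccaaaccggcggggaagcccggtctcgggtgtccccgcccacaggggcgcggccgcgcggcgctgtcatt
Slc38a2: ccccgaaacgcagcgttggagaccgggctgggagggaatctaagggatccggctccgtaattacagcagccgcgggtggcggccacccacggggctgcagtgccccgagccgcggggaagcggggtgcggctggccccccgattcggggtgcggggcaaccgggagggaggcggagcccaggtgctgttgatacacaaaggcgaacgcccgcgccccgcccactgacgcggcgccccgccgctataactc

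ACGTG stood in the windows of Slc16a1, Slc2a1, Slc16a3 and Slc3a2, and in 16.6% of 32851 windows of the same length over all genes. In Slc16a1 it was part of a CACGTG that began 200 bases before the start, a word found in 6.02% of all windows. Slc16a3 held ACGTG at 27 and at 14 bases before the start and Slc2a1 at 36 bases, where the match straddles the GENCODE start. GCGTG was found in Slc16a1 and Slc2a1 and in 28.2% of all windows. None of the 4 words was found in the windows of Slc38a2 or in either window of Slc7a1, and TGATGNAA, which 3.45% of all windows held, was found in no window of these genes. The matches describe the sequence, and binding of any factor was not measured. Whether they relate to the transcript values was not tested, and Slc38a2 was the only gene with a window outside the lower set.

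In GENCODE M21 on GRCm38, the build that the submitters' processing notes name as mm10, all 10 are protein-coding genes. Slc7a5 lies on chromosome 8 from 121881150 to 121907694, Slc3a2 on chromosome 19 from 8706882 to 8723369 and Slc7a1 on chromosome 5 from 148327410 to 148399904. Slc1a5 lies on chromosome 7 from 16781340 to 16798274. Slc38a1 and Slc38a2 are neighbours on the minus strand of chromosome 15, from 96571418 to 96642913 and from 96687392 to 96699730, with 44478 bases and 1 annotated gene (Gm22045) between them. The glucose carriers are on different chromosomes, Slc2a1 on chromosome 4 from 119108711 to 119137983 and Slc2a3 on chromosome 6 from 122727809 to 122801640. So are the lactate carriers, Slc16a1 on chromosome 3 from 104638668 to 104658462 and Slc16a3 on chromosome 11 from 120948480 to 120960868. The coding sequences are of similar size within each pair, with 485 and 504 codons for Slc38a1 and Slc38a2, 492 and 493 for Slc2a1 and Slc2a3, and 493 and 470 for Slc16a1 and Slc16a3. The last 500 bases of a gene, where QuantSeq reads fall, overlap an annotated gene of the other strand in Slc7a5 (Gm20388) and in Slc2a1 (Gm12868). Whether strand was used in counting is not given in the sources used here, so for these 2 genes reads of the partner could not be told apart.

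The cells carried the transcripts of CD4+ T cells, and both libraries were of similar depth. The reads on genes, recovered from the deposited values, were 10846166 in control and 10432628 in TSA-treated cells, of which the ribosomal RNA precursor Rn45s held 8.72% and 9.63%. The 8 CD4+ T cell markers (such as Cd3e, Cd4 and Lck) together had 19310 and 20771 reads. Markers of other cells had few reads, with sums of 80 and 87 reads for CD8+ T cells, 12 and 15 for B cells, 62 and 73 for myeloid and dendritic cells, 47 and 41 for NK cells and 43 and 58 for erythroid cells. Ms4a1 and Ncr1 were at 0 in control cells, Adgre1 and Itgax at 0 in TSA-treated cells, and Klrb1c, Klre1 and Hba-a2 at 0 in both. Flt3, a receptor of dendritic cell precursors, had 0 and 33 reads. Of the 5 activation and proliferation markers, 4 had an interval of the fold change below 1, as had 28.0% of all genes tested and 36.5% of those averaging 100 or more normalized counts. Mki67, a marker of dividing cells, had 1861 and 653 reads and a fold change of 0.348 (0.317 to 0.38), and Il2ra (CD25) 8851 and 7511 reads, a fold change of 0.8403 (0.815 to 0.867). Tfrc, the transferrin receptor, had a fold change of 0.675 (0.647 to 0.704) and Cd69, an early activation marker, of 0.905 (0.826 to 0.992). Cd44, another marker of activated T cells, had a fold change of 1.031, and its interval (0.971 to 1.09) included no change. The part of cell division in the transporter values was not tested, and in bulk RNA fewer cells of a kind and less RNA per cell cannot be told apart.

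The transporters covered a wide range of levels. In the control library Slc38a1 was the most abundant, with a normalized count (reads after the authors' scaling) of 5274, and Slc2a3 the least, with 129.6. Slc38a2 (2956) and Slc3a2 (2932) followed Slc38a1 and did not differ beyond their 95% Poisson intervals. Slc7a1 (2084), Slc1a5 (1922) and Slc16a1 (1756) came next, with overlapping intervals between neighbours, and were followed by Slc7a5 (1053), Slc2a1 (618) and Slc16a3 (246). In the TSA library Slc38a1 (5066) and Slc38a2 (3153) were again at the top of the order, whereas the intervals of Slc3a2 (2036) and Slc1a5 (2016) overlapped. Slc7a1 (1658), Slc16a1 (1281), Slc7a5 (641) and Slc2a1 (384) followed. Slc2a3 (158) and Slc16a3 (156) could not be ordered at the bottom, where their intervals overlapped.

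**Figure D1:**
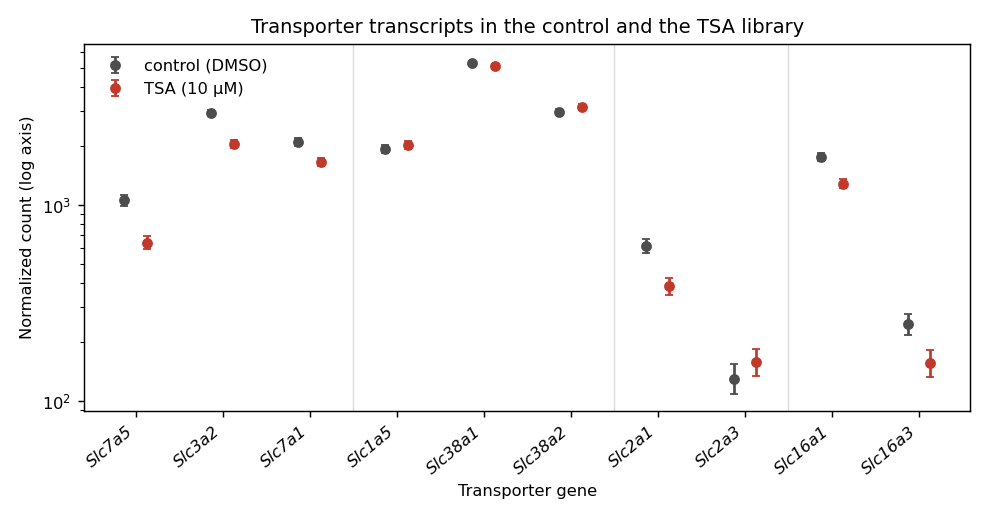
Normalized counts (log axis) of the 10 transporter genes in the control library (gray) and the TSA library (red), with 95% Poisson intervals that cover counting error only. The TSA point is below the control point by more than both intervals for Slc7a5, Slc3a2, Slc7a1, Slc2a1, Slc16a1 and Slc16a3, and the intervals overlap for Slc1a5, Slc38a1, Slc38a2 and Slc2a3.

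Both parts of the leucine carrier were lower in the TSA library. Slc7a5 had 1047 reads in control and 644 in TSA-treated cells. Its fold change was 0.609 (0.551 to 0.6725), the lowest of the 10, and 3.47% of the 8188 genes averaging 100 or more normalized counts had a lower one. Slc3a2, whose product also pairs with other light chains and with integrins, had 2917 and 2046 reads and a fold change of 0.6945 (0.656 to 0.735). Of the reads of both genes, Slc7a5 held 26.4% in the control library (25.1% to 27.8%) and 23.9% in the TSA library (22.3% to 25.6%). The odds of a read falling on Slc7a5 and not on Slc3a2 were thus 0.877 times as high in the TSA library (0.782 to 0.984), a ratio that does not depend on how the libraries are scaled.

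Slc7a1 encodes CAT1, which carries arginine and lysine. It had 2074 reads in control and 1666 in TSA-treated cells and a fold change of 0.7955 (0.745 to 0.849). This was the smallest difference among the 6 carriers whose level intervals did not overlap between the libraries, and 19.3% of the genes averaging 100 or more normalized counts had a lower fold change.

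The sodium-coupled carriers of glutamine and other neutral amino acids stood close to the control. Slc1a5 (ASCT2), an exchanger that is among the main routes of glutamine into activated T cells, had 1912 reads in control and 2026 in TSA-treated cells. Its fold change was 1.05, and the interval of 0.985 to 1.12 included no change. Slc38a1 (SNAT1) had 5248 and 5091 reads and a fold change of 0.961 with an interval of 0.924 to 0.9985 that barely left out no change. With the libraries scaled by their total reads its log2 fold change turned from -0.058 to 0.012, so its direction rests on the scaling. Slc38a2 (SNAT2), a carrier that cells make more of when amino acids run short, had 2942 and 3169 reads and a fold change of 1.07 (1.014 to 1.12). Summed, the 3 genes had a fold change of 1.01 (0.981 to 1.04), against 0.672 (0.64 to 0.706) for Slc7a5 and Slc3a2. Slc38a1 held 64.1% of the reads of the SNAT pair in control and 61.6% in TSA-treated cells, an odds ratio of 0.901 (0.845 to 0.96).

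The balance between the glucose carriers differed. Slc2a1 encodes GLUT1, the carrier that most of the added glucose uptake of activated T cells depends on. It had 615 reads in control and 386 in TSA-treated cells and a fold change of 0.622 (0.546 to 0.707), next to that of Slc7a5. Slc2a3 encodes GLUT3, which binds glucose more tightly. It had 129 and 159 reads and a fold change of 1.22, and the interval of 0.961 to 1.55 included no change. Slc2a1 held 82.7% of the reads of the pair in the control library (79.8% to 85.3%) and 70.8% in the TSA library (66.8% to 74.6%). The odds ratio of 0.5095 (0.387 to 0.6695) was the one farthest from 1 among the 4 pairs compared.

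The lactate carriers were lower together. Slc16a1 encodes MCT1, which moves lactate and pyruvate with a proton in either direction, and had 1747 reads in control and 1287 in TSA-treated cells. Its fold change was 0.7295 (0.678 to 0.784). Slc16a3 encodes MCT4, a carrier suited to the export of lactate from glycolytic cells, and had 245 and 157 reads. Its fold change was 0.636 (0.516 to 0.7785). The share of Slc16a1 in the reads of the pair was 87.7% in control and 89.1% in TSA-treated cells, and the odds ratio of 1.15 had an interval, 0.925 to 1.43, that included 1. A difference between both carriers in their response of up to that size could not be seen at this depth.

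**Figure D2:**
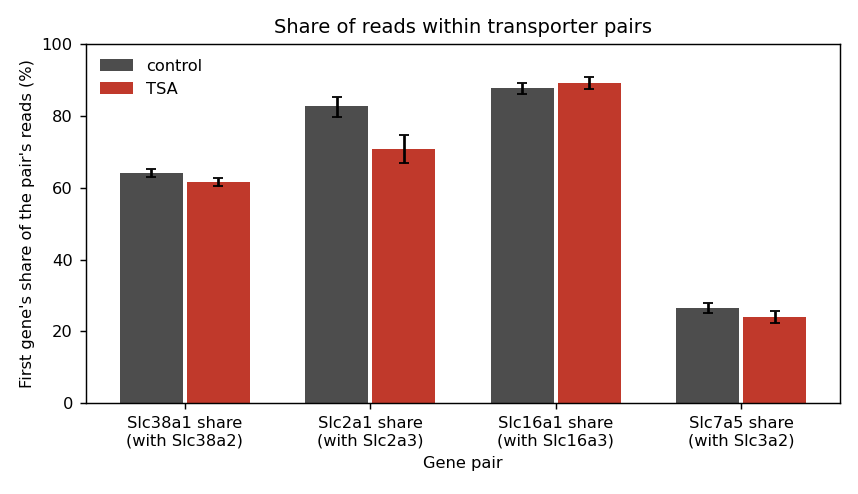
Share (%) of the reads of 4 pairs of transporter genes that fell on the first gene of the pair, in the control library (gray bars) and the TSA library (red bars), with exact 95% intervals for counting error. The share of Slc2a1 was 82.7% in control and 70.8% in TSA-treated cells, the widest gap of the 4.

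By the rule of the study, 0 of the 10 transporters passed 2-fold. Of all 12164 genes with at least 10 reads in 1 library, 11.5% passed it with a higher value in the TSA library and 3.15% with a lower one. The transporters all averaged 100 or more normalized counts, and among genes at that level 1.48% passed 2-fold upward and 1.31% downward. At 1.5-fold, 3 transporters passed downward (Slc7a5, Slc2a1 and Slc16a3) and 0 upward, where 5.90% of the genes at that level passed downward and 6.05% upward.

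The interval of the fold change lay below 1 for 7 transporters (the 6 lower ones and Slc38a1) and above 1 for 1 (Slc38a2), and it included 1 for 2 (Slc1a5 and Slc2a3). Of all genes tested, 28.0% had an interval below 1 and 28.1% above 1. At an average of 100 or more normalized counts the shares were 36.5% and 23.4%. The median log2 fold change of the transporters was -0.39, beside 0.015 for all genes tested and -0.058 for genes at that level. With total-read scaling, which moves every log2 fold change up by 0.070, the interval lay below 1 for 6 transporters and above 1 for 3 (Slc38a2, Slc1a5 and Slc2a3).

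**Figure D3:**
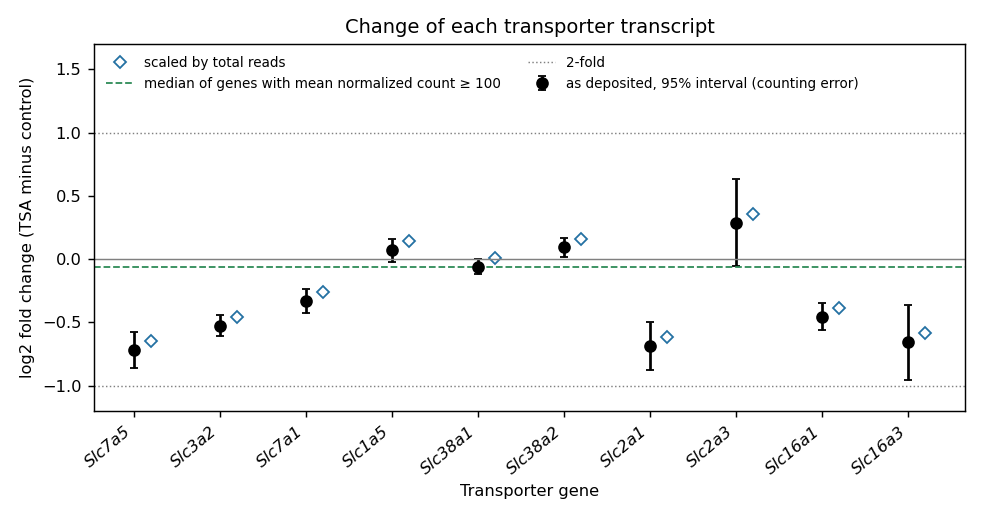
Log2 fold change (TSA minus control) of each transporter gene as deposited, with its 95% interval for counting error (black), and with the libraries scaled by total reads (blue diamonds). The dashed line marks the median of -0.058 for genes averaging 100 or more normalized counts, and no point reaches the dotted lines at 2-fold.

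**Figure D4:**
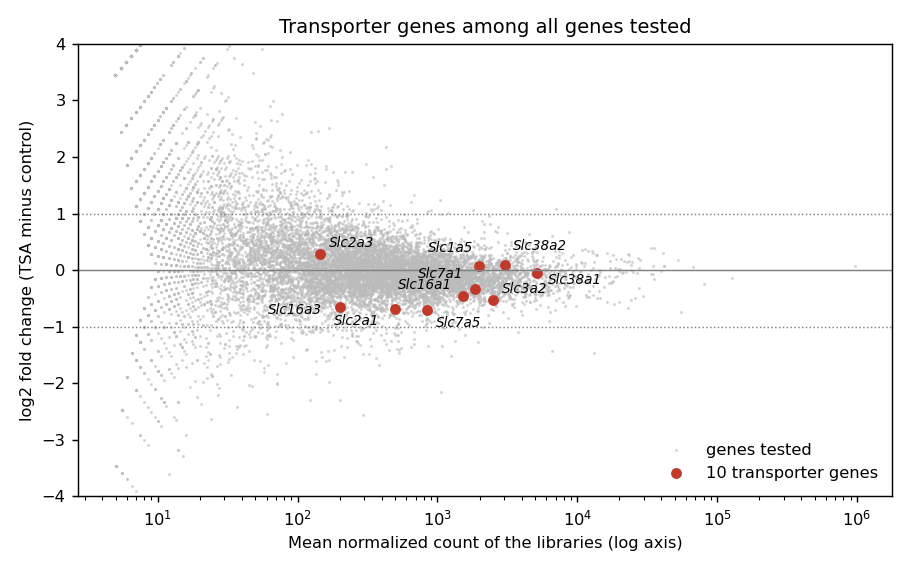
Log2 fold change (TSA minus control) against the mean normalized count (log axis) for all 12164 genes tested (gray) and the 10 transporter genes (red). The transporters lie within 2-fold, and 127 genes lie outside the range drawn.

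The lists of related genes were described in the same way, beginning with the other carriers of the same nutrients. Their counts stand beside shares over all genes tested of 28.0% with an interval below 1 and 28.1% above 1. Past 2-fold these shares were 11.5% upward and 3.15% downward. Of 27 other amino acid transporter genes, 7 had no read in either library and 17 had enough reads to be tested. Of these 17, 4 were past 2-fold with a higher value in the TSA library and 1 with a lower value, and the median log2 fold change was -0.022. The interval lay above 1 for 6 of them and below 1 for 2, and included 1 for 9. Slc36a1, a proton-coupled amino acid carrier of lysosomes, had 68 reads in control and 153 in TSA-treated cells and a fold change of 2.21 (1.66 to 3.01). The other 4 past 2-fold rested on few reads, with 0 and 31 for the glutamate carrier Slc1a2 (at least 10.2-fold higher against a floor of 3 control reads, with 7.84-fold as the lower limit of the exact interval), 6 and 18 for Slc7a3, 9 and 21 for Slc7a7, and 11 and 5 for Slc3a1, whose interval of 0.123 to 1.405 included no change. The median was also -0.022 with Slc1a2 at its bound. Slc38a9, which senses arginine in lysosomes for mTORC1, had 123 and 207 reads and a fold change of 1.66 (1.33 to 2.1). The taurine carrier Slc6a6 was the most abundant of this list, with 2182 and 1626 reads, a fold change of 0.738 (0.692 to 0.787).

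Of 11 other hexose transporter genes, 4 could be tested, with 1 interval above 1, 1 below and 2 that included it. Slc2a6 (GLUT6) was past 2-fold, with 84 reads in control and 36 in TSA-treated cells, a fold change of 0.431 (0.279 to 0.634). Slc2a8, Slc2a9 and Slc2a12 had higher values in the TSA library, with fold changes of 1.32, 1.22 and 1.54, and of these the interval of Slc2a12 (1.11 to 2.17) left out no change. Among 14 other monocarboxylate carriers and 2 chaperones of MCT proteins, 7 genes could be tested. The interval lay below 1 for 5 of them and above 1 for 0, beside 28.0% and 28.1% of all genes tested. The median log2 fold change of the 7 was -0.27. Bsg (basigin), the chaperone that MCT1 and MCT4 need to reach the cell surface, had 1090 and 957 reads and a fold change of 0.869 (0.796 to 0.949). Emb (embigin), a related chaperone, had 693 and 545 reads and a fold change of 0.779 (0.695 to 0.8725). Slc16a5 was past 2-fold on 12 and 3 reads, a fold change of 0.305 (0.0448 to 0.917).

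Of the 13 enzymes that act on what these carriers bring in, 12 could be tested. Of these, 6 had an interval below 1 and 3 above, beside 28.0% and 28.1% of all genes tested. The median log2 fold change of the 12 was -0.395 and none of them was past 2-fold. Among the enzymes for glucose and lactate, forms of the same enzyme differed in direction. Hk2, the inducible hexokinase, had 2598 reads in control and 1730 in TSA-treated cells and a fold change of 0.659 (0.62 to 0.701), while Hk1 had 1085 and 1389 and a fold change of 1.27 (1.17 to 1.37). Ldha, which makes lactate from pyruvate, had 10063 and 7418 reads and a fold change of 0.73 (0.708 to 0.752), while Ldhb, the subunit that favours the reverse reaction, had 131 and 225 and a fold change of 1.69 (1.36 to 2.13).

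The enzymes of branched-chain amino acids and ornithine had lower values. Bcat1, which transaminates branched-chain amino acids in the cytosol, had 1127 and 615 reads and a fold change of 0.541 (0.489 to 0.597), and Bcat2, its mitochondrial form, had 144 and 110 and a fold change of 0.758 (0.585 to 0.976). Odc1, which makes polyamines from ornithine, had 2376 and 1648 and a fold change of 0.687 (0.645 to 0.732). Glul, which makes glutamine, had 762 and 846 and a fold change of 1.1 (0.996 to 1.21). Gls2 had 202 and 332 reads and a fold change of 1.625 (1.36 to 1.95). Asns, which makes asparagine, had 108 and 83 reads, and its interval of 0.565 to 1.02 included no change.

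Of 8 regulators of transporter genes or proteins, 6 could be tested and none was past 2-fold. The interval lay below 1 for 2 of them, above 1 for 2, and included 1 for 2. Over all genes tested it lay below 1 for 28.0% and above 1 for 28.1%. Atf4 had 5017 reads in control and 3322 in TSA-treated cells and a fold change of 0.656 (0.627 to 0.685). Myc had 1312 and 1170 reads and a fold change of 0.883 (0.815 to 0.956), and Hif1a had 1230 and 1146 and a fold change of 0.923 (0.8505 to 1.001) that did not leave out no change. Mlxip, a glucose-sensing factor, had 195 and 201 reads and a fold change of 1.02. Both arrestins that remove glucose carriers from the cell surface had higher values, Txnip with 244 and 403 reads, a fold change of 1.63 (1.39 to 1.925), and Arrdc4 with 25 and 43, a fold change of 1.68 (1.017 to 2.91).

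All 21 genes of mTORC1 and its amino acid sensors could be tested, and their median log2 fold change was -0.068. Past 2-fold were 2 sestrins, a family that restrains mTORC1, in opposite directions. Sesn1 had 60 reads in control and 125 in TSA-treated cells and a fold change of 2.04 (1.5 to 2.85). Sesn2 had 19 and 3 reads and a fold change of 0.198 (0.0296 to 0.531). Neither call held under every setting. Sesn2 was filtered out when 10 reads were required in both libraries, and when genes had to average 50 normalized counts. Sesn1 fell short of 2-fold with a pseudocount of 5. The contrast in direction thus rests on the settings used here. The third sestrin, Sesn3, had 410 and 697 reads and a fold change of 1.68 (1.49 to 1.91). In all, 5 genes had an interval below 1 (among them Mlst8, Rraga and Rheb), 4 above 1, and 12 included it. The shares below and above 1 over all genes tested were 28.0% and 28.1%.

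**Figure D5:**
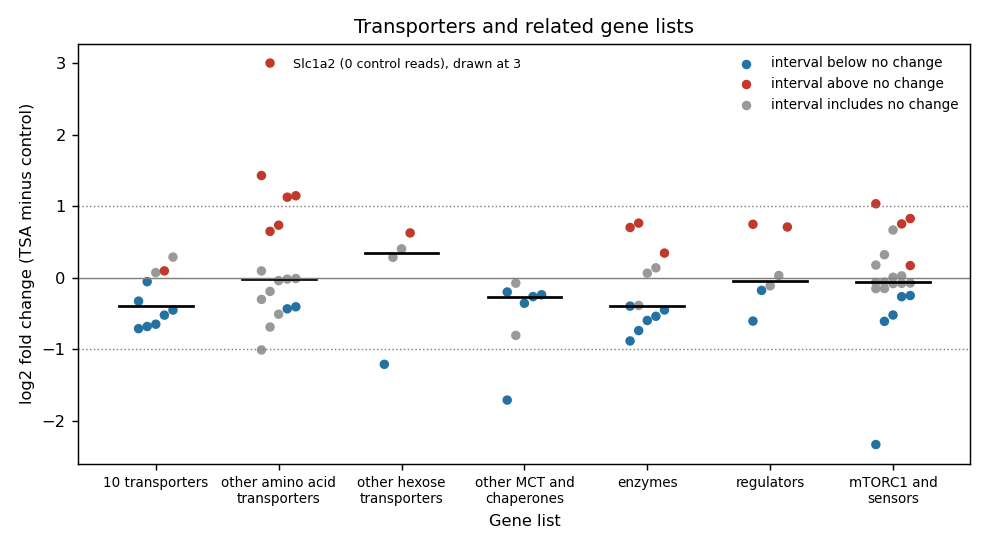
Log2 fold change (TSA minus control) of every tested gene of the 10 transporters and the 6 related lists, with the median of each list as a black bar and colours for the position of the 95% interval. The medians are -0.39 for the transporters, -0.022 for other amino acid transporters and -0.395 for the enzymes, and Slc1a2, with 0 control reads, is drawn at 3.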

How the data were processed

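RNA of 1 control and 1 TSA-treated sample was sequenced as QuantSeq libraries with single-end 75-nt reads. The submitters' processing notes name Bowtie2, bedtools and the build mm10. The authors analysed the data with ExDEGA, and their annotation, scaling method and versions are not given in the sources used here. The authors deposited 1 log2 value per gene symbol and library, log2 of a normalized count plus 1, given to 3 decimals. Rows were matched to the transporters by symbol.

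Reads were recovered by dividing the values, taken out of the log2 scale, by the worth of 1 read (1.005 for control and 0.995 for TSA). Of values from 1 to 300 reads, 99.95% and 99.94% lay within 0.1 of a whole number, and for the transporters rounding leaves an error of up to 1.82 reads. A control value close to 0 (1940 rows) was read as 0 reads. Depth sets a floor of 3 reads, a CPM (counts scaled to the library total) of 0.277 for control and 0.288 for TSA. Log2 fold changes are deposited TSA minus control values, whose pseudocount of 1 understates changes of low genes. Genes with at least 10 reads in 1 library were tested, that is, compared with the 2-fold threshold. With 1 library per condition no p-value was computed. Intervals are exact Clopper-Pearson (folds, shares), Poisson (levels) or conditional exact (odds ratios) 95% intervals, which compare these libraries, not the conditions. They cover counting error only. They treat each read as an independent molecule, which PCR copies are not, so they may be too narrow even for counting error.

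The transporters and gene lists were chosen with earlier results of these data known, and the level of 100 normalized counts was chosen after the values were seen. All transporters are named, with list genes past 2-fold and, for regulators, enzymes and chaperones, those with at least 100 reads. Other list genes in the text (Slc38a9, Slc6a6, Slc2a8, Slc2a9, Slc2a12, Arrdc4, Mlst8, Rraga, Rheb, Sesn3 and the single markers) were picked after their values were seen. Some list genes count in the totals of their lists but are not reported here by name. Likeness between gene patterns was not computed, because 2 libraries give 1 difference per gene. Alternatives covered scaling, pseudocount, filter and threshold. The steps were tested on simulated data. Scripts ran on pandas 2.3.3, scipy 1.17.1, matplotlib 3.10.9 and numpy 2.4.6 under Python 3.11.15.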

Additional observations from a re-analysis of the deposited data

How the results depend on the processing

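No paired analysis was possible because each condition had a single library, which also leaves nothing to omit in turn. Of 70 log2 fold changes of single transporters recomputed under 5 scalings and 2 pseudocounts, 68 kept their direction. Slc38a1 did not, with 0.012 under total reads and 0.027 under total reads without Rn45s. The transporters with an interval above 1 numbered 3 under both of these scalings and 2 with the upper quartile, in place of 1. Past 1.5-fold there were 3 transporters in place of 0 past 2-fold, and with the whole interval beyond 2-fold the number stayed at 0. The 6 related lists had 9 genes past 2-fold, 19 without a filter, 3 with at least 10 reads in both libraries, 3 averaging 50 or more normalized counts and 26 past 1.5-fold. The number was 6 with a pseudocount of 5, and 8 under the total-read and upper-quartile scalings. Of all genes tested, 1400 were past 2-fold upward and 383 downward. The numbers were 2817 and 1200 without a filter, 524 and 223 with at least 10 reads in both libraries, 278 and 141 with a mean of at least 50, 2279 and 1014 past 1.5-fold, and 604 and 99 with the whole interval beyond 2-fold. Pair shares are taken within a library, so the scaling cannot change them. The depth cannot order Slc2a3 and Slc16a3 in the TSA library.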

Other observations

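The transporters were also set among all genes with symbols of the form Slc, called the family here, a list made after the values were seen. The form also takes in Slc9a3r1, which encodes a regulator of a carrier, so the list is wider than the solute carriers. Of 373 such rows, 204 passed the filter on reads, and the 10 transporters held 21.7% of the family's reads in control and 20.2% in TSA-treated cells. The 114 other family genes averaging 100 or more normalized counts had log2 fold changes with a median of -0.079, and had 31 intervals below 1 and 23 above, beside 7 and 1 of the 10 transporters. The only family members at that level past 2-fold were Slc36a1 and the nucleoside carrier Slc28a2, which had 94 reads in control and 194 in TSA-treated cells and a fold change of 2.03 (1.59 to 2.64). Slc11a2, an iron carrier picked after its value was seen, had 208 and 408 reads and a fold change of 1.94 (1.64 to 2.31), while Tfrc, the receptor that takes up transferrin-bound iron, had 5448 and 3714. The family genes with the most reads in control cells, the mitochondrial carriers Slc25a3 and Slc25a5, had log2 fold changes of 0.006 and -0.495.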
